A study of Mus musculus with 6 samples.

Results

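Immunoglobulin gene segments were examined in macrophages of wild type (WT) and progranulin knockout (PGRN KO) mice. They were taken as all genes of the deposited table whose biotype was an immunoglobulin constant (C), variable (V), diversity (D) or joining (J) gene, which gave 264 of 54532 genes. Of these, 13 were C, 218 V, 19 D and 14 J genes, and 144 lay in the heavy chain locus on chromosome 12, 108 in the kappa locus on chromosome 6 and 12 in the lambda locus on chromosome 16 (GRCm38). A total of 144 of the 264 were above 0 FPKM in at least 1 library. FPKM are fragments divided by the length of the model, in kilobases, and by the library size in units of 1000000 fragments. Without the division by length they are fragments per 1000000 (FPM), the unit used for sums over segments.

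The series compared 3 WT libraries, numbered 1, 2 and 3, with 3 PGRN KO libraries, numbered 4, 5 and 6, all from mice of the C57BL/6J strain. By the labels, the cells were collected from the peritoneal cavity, plated at 2000000 per well and exposed in culture to C. albicans for 6 hours, at 1 fungal cell per macrophage. Both genotypes received the fungus, and no unchallenged culture was analysed here, so the data hold no baseline. The methods of the study describe the sequenced cells as derived from bone marrow, and its text gives another ratio of fungus to cells, so neither the source of the cells nor the dose was settled, and whether each library came from a separate animal was not stated. P-values therefore measure only the spread between these libraries, which may be technical.

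An antibody is made of a pair of heavy and a pair of light chains. A developing B cell joins 1 V, 1 D and 1 J segment of the heavy chain locus, and 1 V and 1 J segment of the kappa or lambda locus, and the joined V region is spliced to the constant region gene. The constant gene of the heavy chain sets the isotype: Ighm encodes IgM and Ighd encodes IgD, both carried by naive B cells, Igha encodes IgA, and the Ighg genes encode IgG. Joining of these loci is a property of B cells, and the peritoneal cavity holds many B cells, among them B-1 cells, which make natural IgM.

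Several segments are shown because their sequence bears on how they could be counted. The lambda variable segments Iglv1 and Iglv2 end in nearly the same bases, as seen in the last 75 bases of each gene model on the sense strand, with the codon of the conserved cysteine in capitals. The models lie on the minus strand at chr16:19085017-19085500 (Iglv1) and chr16:19260401-19260859 (Iglv2) of GRCm38, and all sequences shown are read 5′ to 3′ from the GENCODE transcripts of that build.
Iglv1: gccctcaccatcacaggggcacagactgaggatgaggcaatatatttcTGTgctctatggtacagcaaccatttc
Iglv2: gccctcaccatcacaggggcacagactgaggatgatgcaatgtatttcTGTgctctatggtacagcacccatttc

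The lambda constant genes were aligned at their start over 100 bases, with bases that differ from Iglc2 in capitals. Iglc3 differed from Iglc2 at 6 of the 100 bases and Iglc1 at 23. The Iglc1 line begins further along than the Iglc2 line shown, at the bases cagccc. Its last bases were therefore compared with Iglc2 bases that are not shown.
Iglc2: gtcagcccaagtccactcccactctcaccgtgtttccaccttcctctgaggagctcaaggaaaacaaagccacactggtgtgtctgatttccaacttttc
Iglc3: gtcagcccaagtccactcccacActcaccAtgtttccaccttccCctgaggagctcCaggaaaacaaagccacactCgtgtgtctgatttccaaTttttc
Iglc1: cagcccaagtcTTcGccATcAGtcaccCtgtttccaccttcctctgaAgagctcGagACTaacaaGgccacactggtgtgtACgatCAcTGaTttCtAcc

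The J segments below are shown because they are so short that 1 fragment, where counted, gave more than 1 FPKM. The capitals mark the stretch that encodes phenylalanine or tryptophan followed by glycine, any residue and glycine, the motif shared by J segments. The model of Igkj5 lies at chr6:70723886-70723927 on the plus strand. The printed transcripts of Igkj5 and Igkj2 hold 38 and 39 bases, fewer than the 42 and 43 bases of their models.
Igkj5: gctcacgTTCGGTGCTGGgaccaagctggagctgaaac
Igkj2: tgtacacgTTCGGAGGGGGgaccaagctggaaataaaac
Iglj1: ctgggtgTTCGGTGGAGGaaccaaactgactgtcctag
Ighj4: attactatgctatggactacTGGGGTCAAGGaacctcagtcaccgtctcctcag

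The last 75 bases of Ighv11-2 and Igkv14-126 are shown because these segments are known to pair in B-1 cell receptors that bind phosphatidylcholine, again with the cysteine codon in capitals. Ighv11-2 lies at chr12:114048241-114048812 on the minus strand and Igkv14-126 at chr6:67896172-67896642 on the plus strand.
Ighv11-2: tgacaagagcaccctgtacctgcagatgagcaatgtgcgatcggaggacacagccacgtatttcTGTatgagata
Igkv14-126: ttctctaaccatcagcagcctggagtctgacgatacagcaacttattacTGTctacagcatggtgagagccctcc

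To compare these sequences between genes, each model was divided into words of 31 bases. Of 143 segments above 0 FPKM that held such words, 19 shared none with another gene, 105 shared more than 10% and 49 more than 50%. The share was 0% in Ighm, Igkc and Igha, 19.6% in Iglc2, 40.8% in Iglc3, 36.8% in Iglv1 and 36.5% in Iglv2. The constant genes Ighm, Igkc and Igha could thus be assigned without a near-identical copy, while the division of fragments among V segments, and between Iglc2 and Iglc3, was uncertain.

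The libraries held 15996786 to 17551619 counted fragments. Grn, which encodes progranulin, was at 323 to 337 FPKM in the WT libraries, and 1, 0 and 1 fragments were counted in PGRN KO replicates 4, 5 and 6. The macrophage genes Adgre1 (162 to 195 FPKM), Cd68 (1163 to 1344 FPKM) and Csf1r (23.6 to 33.4 FPKM) were present in every library. Across the 8882 genes with a mean of at least 1 FPKM, the Pearson correlation of log2(FPKM + 1) was 0.992 between PGRN KO replicates 4 and 5, and 0.971 and 0.972 between each of them and PGRN KO replicate 6, which thus stood apart. Results that rest on this library are given with and without it.

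Immunoglobulin transcripts were rare in both genotypes and more abundant in PGRN KO. Over all 6 libraries 3269 fragments were assigned to the 264 segments, 735 in WT and 2534 in PGRN KO, and they made up 0.00136% to 0.00545% of the fragments of a library. Ighm and Igkc held 70.5% of them. Summed over all segments, the level was 15.1, 16.4 and 13.2 FPM in WT replicates 1, 2 and 3 and 45.2, 42.7 and 54.6 FPM in PGRN KO replicates 4, 5 and 6. Every PGRN KO library was above every WT library, and the means were 14.9 ± 1.60 and 47.5 ± 6.26 FPM (each ± SD, n = 3), a 3.18-fold difference. In such bulk samples, fewer cells of a type and less RNA per cell cannot be told apart.

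All 3 loci were higher in PGRN KO, with no overlap between the groups. The heavy chain locus was at 10.4, 11.3 and 9.09 FPM in WT and at 30.4, 28.7 and 35.2 FPM in PGRN KO, a 3.07-fold difference of the means. The kappa locus was at 4.06, 4.26 and 3.77 FPM in WT and at 12.4, 11.0 and 16.3 FPM in PGRN KO, a 3.28-fold difference. The lambda locus was at 0.657, 0.879 and 0.388 FPM in WT and at 2.37, 2.96 and 3.07 FPM in PGRN KO, a 4.36-fold difference. These sums carry no test, since the segments of a locus are parts of the same transcripts. The log2 ratio of the means was 1.62, 1.72 and 2.12 in the heavy, kappa and lambda loci, and it was 1.53, 1.54 and 2.05 without PGRN KO replicate 6. In the heavy chain locus it was 0.73 without Ighm.

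The 226 T cell receptor segments, which are rearranged in the same manner in T cells, served as a comparison. Their sum was 8.31, 7.30 and 6.32 FPM in WT and 7.68, 5.28 and 8.74 FPM in PGRN KO. The groups overlapped, and the means were 7.31 ± 0.995 and 7.23 ± 1.77 FPM (each ± SD, n = 3), a 0.990-fold ratio. The difference between the immunoglobulin and T cell receptor segments was not tested. The sum of the T cell markers given further on was 4.90 to 5.05 FPKM in WT and 7.24 to 9.01 FPKM in PGRN KO. The receptor segments alone thus do not show that T cell content was equal.

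**Figure D1:**
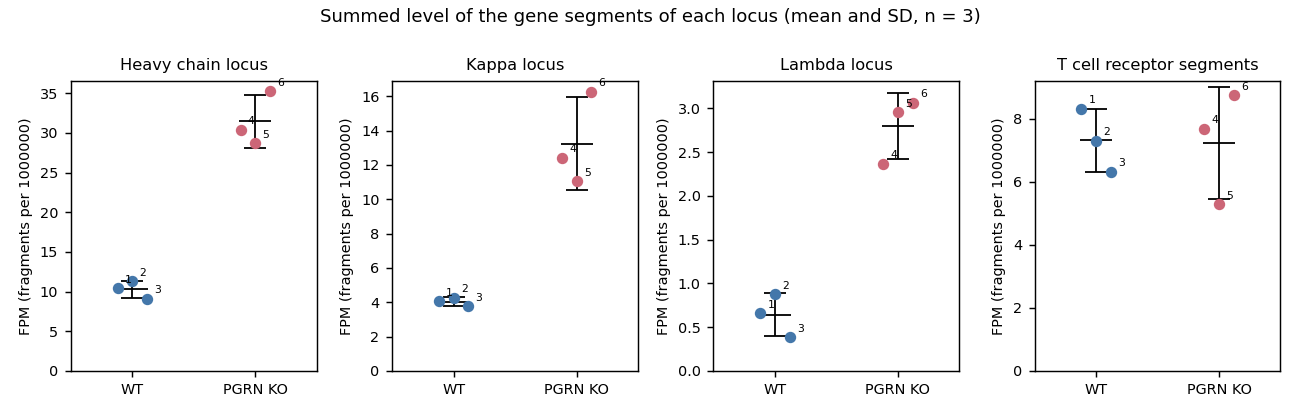
Summed level of the gene segments of the heavy chain, kappa and lambda loci and of the T cell receptor segments, in FPM, with 1 point per library (numbered by replicate) and the mean and SD of each group. The 3 PGRN KO libraries lie above the 3 WT libraries in each immunoglobulin locus, from 28.7 to 35.2 against 9.09 to 11.3 in the heavy chain locus, whereas the groups overlap for the T cell receptor segments.

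Ighm and Igkc, the constant genes of IgM and of the kappa light chain, were the members whose increase was best supported. Ighm (ENSMUSG00000076617, chromosome 12, 113418558 to 113422730, minus strand) was at 3.96, 3.58 and 2.88 FPKM in WT and at 12.8, 12.2 and 15.2 FPKM in PGRN KO. These values rested on 125, 100 and 98 fragments in WT and 419, 436 and 495 fragments in PGRN KO. The summed fragments gave a 3.87-fold difference (95% exact interval 3.42 to 4.38, counting error only, as for all such intervals). By limma the log2 fold change was 1.69 ± 0.13 (SE) on the log2(FPKM + 1) scale, which understates the change of low genes, and the adjusted p was 0.00119. Igkc (ENSMUSG00000076609, chromosome 6, 70726435 to 70726966, plus strand) was at 4.94, 5.59 and 4.69 FPKM in WT and at 15.3, 13.9 and 23.6 FPKM in PGRN KO. PGRN KO replicate 6 was the highest for Igkc, and replicates 4 and 5 alone were also above every WT library. By limma the log2 fold change was 1.58 ± 0.19 (SE) and the adjusted p was 0.00305. The lincRNA Gm30211 overlaps Igkc on the same strand and held 0 fragments in WT and 4, 3 and 2 fragments in PGRN KO.

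Of all genes, 8882 had a mean FPKM of at least 1 and were tested with limma, and 10.4% of them were called higher and 13.8% lower in PGRN KO at an adjusted p of 0.05. Only 6 of the 264 segments were among them, of which 4 were called higher and 0 lower. Only Ighm and Igkc had a mean of at least 1 FPKM in both groups. The other segments passed the filter through the PGRN KO group or through 1 library, so the count is no support for a change of the segments as a group. The segments called beside Ighm and Igkc were Iglc2, a lambda constant gene, with a log2 fold change of 0.83 ± 0.23 (SE, limma adjusted p = 0.0421), and Igkj5, a kappa J segment, with 1.59 ± 0.30 (SE, limma adjusted p = 0.0122). The kappa J segment Igkj2 (limma adjusted p = 0.370) and the lambda J segment Iglj1 (limma adjusted p = 0.371) did not pass.

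A filter on fragments, which does not depend on gene length, was tried as well, and was chosen after seeing the data. It sums fragments over both groups, so genes could still enter through PGRN KO. Iglc2, Ighd and Iglc1 did so in the main, with 15, 15 and 8 fragments in WT and 55, 43 and 25 in PGRN KO. With limma voom on the recovered fragments of 13053 genes that had at least 30 fragments in all, 9.21% of genes were called higher and 10.6% lower in PGRN KO. Of 7 segments tested, 2 were higher and 0 lower. They were Ighm, with a log2 fold change of 1.95 ± 0.17 (SE, limma adjusted p = 0.000359), and Igkc, with 1.75 ± 0.26 (SE, limma adjusted p = 0.0029). Iglc2 (log2 fold change 1.99, limma adjusted p = 0.0667), Iglc1 (1.39, 0.084) and Ighd (1.21, 0.133) did not pass, nor did Igha (0.50, 0.364) and Ighg2b (0.41, 0.735). Without PGRN KO replicate 6, the log2 fold change was 1.86 for Ighm and 1.52 for Igkc, both still past the threshold, and Ighd (1.60, limma adjusted p = 0.0168) and Iglc2 (1.85, limma adjusted p = 0.0471) passed also, whereas on log2(FPKM + 1) without that library Iglc2 did not pass (0.74, limma adjusted p = 0.0694).

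Among the light chain constant genes, all 3 lambda genes with fragments were higher in each PGRN KO library than in each WT library. Iglc2 (chromosome 16, 19198396 to 19200351) was at 0.781, 0.663 and 0.0906 FPKM in WT and at 1.04, 1.99 and 1.99 FPKM in PGRN KO. WT replicate 3 held a single Iglc2 fragment. The limma call was lost when WT replicate 1, 2 or 3 or PGRN KO replicate 5 or 6 was left out (adjusted p 0.0694 to 0.105) and was kept without PGRN KO replicate 4. Iglc1 (chromosome 16, 19061618 to 19062071) was at 0.263, 0.298 and 0.488 FPKM in WT and at 0.763, 1.16 and 1.15 FPKM in PGRN KO, a 2.89-fold difference of summed fragments (95% exact interval 1.27 to 7.42). Iglc3 (chromosome 16, 19065230 to 19065681) had 0, 1 and 1 fragments in WT and 4, 2 and 7 fragments in PGRN KO, a ratio of 6.02 (95% exact interval 1.36 to 54.9). Iglc4 was at 0 FPKM in every library. The lambda genes made up 15.8% ± 3.54 of light chain constant fragments in WT and 15.8% ± 3.69 in PGRN KO (each ± SD, n = 3), and the groups overlapped (exact two-sided permutation test, p = 1).

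IgM was the most abundant isotype in every library, followed by IgA in 5 of them by FPKM and in all 6 by fragments. Igha (ENSMUSG00000095079, chromosome 12, 113254830 to 113260236) was at 0.358, 0.583 and 0.457 FPKM in WT and at 0.649, 0.436 and 0.976 FPKM in PGRN KO. The groups overlapped through PGRN KO replicate 5, and summed fragments gave a 1.47-fold ratio (95% exact interval 1.06 to 2.06). Ighd (chromosome 12, 113406604 to 113416324) had 5 fragments in each WT library and 20, 16 and 7 fragments in PGRN KO, a 2.65-fold difference (95% exact interval 1.45 to 5.14) in which PGRN KO replicate 6 was the lowest of its group.

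The IgG genes were close to the limit of detection. Ighg2b had 7, 9 and 1 fragments in WT and 4, 6 and 9 in PGRN KO, with overlapping groups and a ratio of 1.03 (95% exact interval 0.509 to 2.12). Ighg3 had 2, 0 and 10 fragments in WT and 3, 2 and 2 in PGRN KO, so that its WT level rested on replicate 3. Ighg1 had no fragment in WT and 5, 4 and 3 in PGRN KO, a ratio of 3.70 when the WT group was set to a floor of 3 fragments. The lower 95% exact limit on the fragments as counted was 2.57. Ighg2c, which C57BL/6 mice carry in place of Ighg2a, had no fragment in WT and 1, 2 and 6 in PGRN KO. Its ratio was 2.78 by the same floor, with a lower 95% exact limit of 1.83. Ighe, which encodes IgE, was at 0 FPKM in all libraries. Summed over the IgG genes, the level was 0.538, 0.609 and 0.610 FPM in WT and 0.751, 0.739 and 1.16 FPM in PGRN KO, a 1.51-fold difference without overlap.

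Composition was compared as the share of each isotype among heavy chain constant fragments, of which there were 428 in WT and 1537 in PGRN KO. Ighm took 80.6%, 73.0% and 72.1% in WT and 86.9%, 89.3% and 87.3% in PGRN KO, with means of 75.2% ± 4.71 and 87.9% ± 1.30 (SD, n = 3 each). Igha took 10.3%, 16.8% and 16.2% in WT and 6.22%, 4.51% and 7.94% in PGRN KO, with means of 14.4% ± 3.57 and 6.22% ± 1.71. The IgG genes together took 5.81%, 6.57% and 8.09% in WT and 2.70%, 2.87% and 3.53% in PGRN KO. For each of these the groups did not overlap, and the exact two-sided permutation p was 0.1, the smallest that 3 against 3 libraries allow. With adjustment over the 23 ratios compared it was 0.209. Ighd took 3.52% ± 0.253 in WT and 2.89% ± 1.5 in PGRN KO, with overlap (exact permutation p = 0.8). On a scale per length, the ratio of Ighm FPKM to Igha FPKM was 11.1, 6.15 and 6.30 in WT and 19.8, 28.04 and 15.6 in PGRN KO (exact permutation p = 0.1).

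**Figure D2:**
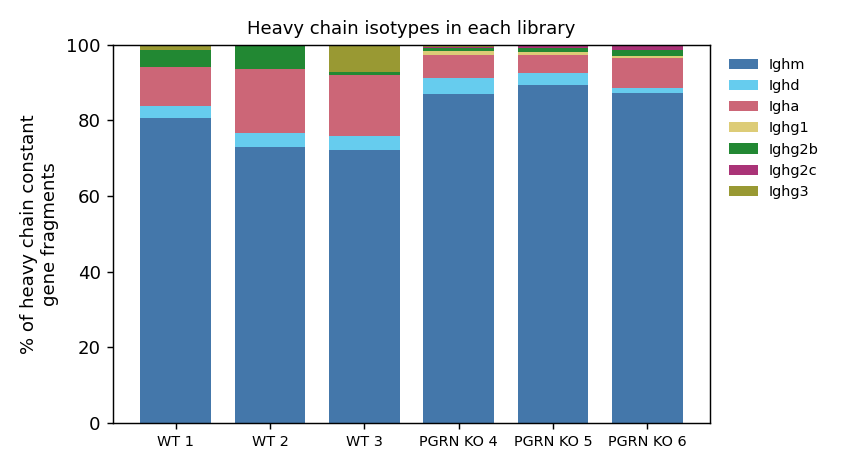
Share of each heavy chain constant gene among all heavy chain constant fragments, in percent, as stacked bars with 1 bar per library. Ighm takes 72.1% to 80.6% in the WT bars and 86.9% to 89.3% in the PGRN KO bars, and the Igha band is narrower in PGRN KO.

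V segments were detected in small numbers of fragments. Of the 218 V segments, 122 had a fragment in some library, and together they held 40, 52 and 50 fragments in WT and 133, 131 and 117 fragments in PGRN KO. Their summed level was 2.89 ± 0.572 FPM in WT and 7.12 ± 0.488 in PGRN KO (each ± SD, n = 3), a 2.46-fold difference without overlap. By locus, the ratio was 1.72 for heavy chain V segments, 2.80 for kappa and 8.64 for lambda, and the groups did not overlap in any of them.

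The lambda V segments showed the widest gap. Iglv2 had no fragment in WT and 10, 6 and 10 fragments in PGRN KO. With the WT group set to 3 fragments the ratio was 8.02, and the lower 95% exact limit on the fragments as counted was 6.07. Iglv1 had 0, 3 and 0 fragments in WT and 6, 7 and 1 in PGRN KO, with overlapping groups. Iglv3 had 0, 1 and 1 fragments in WT and 4, 2 and 4 in PGRN KO. Since Iglv1 and Iglv2 share words, a sum is given too, and all lambda V segments together held 5 fragments in WT and 50 in PGRN KO. Of the 5, 4 were in WT replicate 2, and without that library the ratio of the means was 33.9, with a single WT fragment behind it and a 95% exact interval of 5.57 to 1308 for the ratio of summed fragments.

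The kappa V segments with the most fragments were Igkv1-117, Igkv1-110 and Igkv14-126, followed by Igkv14-111, Igkv4-91 and Igkv8-24 with 9 each. Igkv1-117 had 6, 4 and 1 fragments in WT and 3, 5 and 6 in PGRN KO, a ratio of 1.18 (95% exact interval 0.497 to 2.87). Igkv1-110 had 3, 1 and 2 fragments in WT and 6, 10 and 2 in PGRN KO, a ratio of 2.78 (95% exact interval 1.06 to 8.55). Both overlapped between the groups, and they shared 62.6% and 63.6% of their words with other genes. Igkv14-126 had 2, 2 and 1 fragments in WT and 5, 5 and 4 in PGRN KO, without overlap, a ratio of 2.59 whose 95% exact interval (0.882 to 9.20) included 1. Igkv14-111 had no fragment in WT and 4, 2 and 3 in PGRN KO. Igkv4-91 had 1, 0 and 1 fragments in WT and 6, 0 and 1 in PGRN KO, and Igkv8-24 had 0, 1 and 0 in WT and 5, 2 and 1 in PGRN KO.

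The heavy chain V segments with the most fragments were Ighv11-2, Ighv3-6, Ighv1-58 and Ighv6-3, with Ighv1-55, Ighv6-6 and Ighv7-1 tied behind them at 7 fragments each. Ighv11-2 had 0, 3 and 1 fragments in WT and 4, 2 and 6 in PGRN KO, and shared 50.6% of its words with other genes. Ighv3-6 had 3, 0 and 3 fragments in WT and 5, 0 and 3 in PGRN KO. Ighv1-58 had 0, 2 and 3 fragments in WT and 1, 2 and 1 in PGRN KO, and Ighv6-3 had 0, 2 and 0 in WT and 2, 2 and 3 in PGRN KO. The groups overlapped for each of these 4 segments, and no difference was detectable at this depth.

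The number of V segments seen was 23, 32 and 33 in WT and 59, 63 and 54 in PGRN KO. When each library was reduced to 40 V fragments, the expected number of V segments was 23, 27.4 and 28.5 in WT and 29.0, 29.9 and 28.5 in PGRN KO. Of the 122 segments, 51 were seen in 1 library and 3 in all 6. No single V segment held more than 10 fragments in any library.

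J and D segments added little. The 10 J segments above 0 FPKM held 31 fragments in all, and Ighd1-1, with 1 fragment in PGRN KO replicate 5, was the only D segment detected among 19. Igkj5 had no fragment in WT and 3, 1 and 1 in PGRN KO, which its 42-base model turned into 4.12, 1.26 and 1.38 FPKM. Its call by limma thus rested on 5 fragments. Igkj2 had 0, 0 and 1 fragments in WT and 0, 3 and 1 in PGRN KO, and Iglj1 had 1, 0 and 0 in WT and 0, 4 and 1 in PGRN KO. The heavy chain J segments together had 4 fragments in WT and 3 in PGRN KO, among them Ighj4 with 3 in WT and 1 in PGRN KO.

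Over the 144 segments above 0 FPKM, the mean FPKM was higher in PGRN KO for 105 and lower for 39. In the V segments the numbers were 87 and 35, in the C genes 9 and 2, and in the J segments 8 and 2. The C genes with a lower mean were Ighg2b and Ighg3. Groups were without overlap for 18 of these, all higher in PGRN KO, beside 13.3% higher and 14.1% lower among the 22912 genes above 0 FPKM. Of the 144, however, 126 had fewer than 10 fragments and 39 had a single one, so that most could not separate the groups. Among the 18 with at least 10 fragments, 10 were higher without overlap, beside 18.5% of the 15734 genes with at least 10 fragments. That limit sums fragments over both groups, so segments could reach it through PGRN KO. Iglv2 and Ighg1, for example, had 0 fragments in WT and 26 and 12 in PGRN KO. The count is thus no support for a change of the segments as a group. A total of 65 segments were seen in PGRN KO alone, 16 in WT alone and 63 in both.

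**Figure D3:**
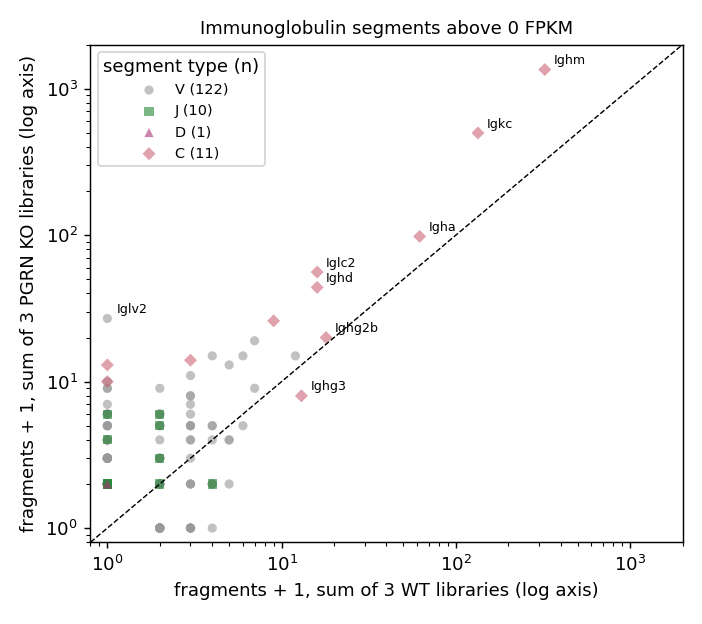
Fragments summed over the 3 WT libraries (horizontal) and over the 3 PGRN KO libraries (vertical), plus 1, on log axes, for the 144 segments above 0 FPKM, with V, J, D and C genes marked apart and the line of equal values dashed. Ighm (323 and 1350 fragments) and Igkc (133 and 498) lie far above the line, Ighg2b (17 and 19) lies near it, Ighg3 (12 and 7) lies under it, and most V segments sit near the origin.

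The genes that mark B cells moved with the immunoglobulin segments. Of 15 B cell markers, 12 were higher in every PGRN KO library than in every WT library, and their summed level was 8.63 to 9.37 FPKM in WT and 19.8 to 22.1 FPKM in PGRN KO. Among all genes above 0 FPKM, 13.3% were higher and 14.1% lower without overlap. With voom at 30 fragments 11 of 13 tested markers were higher and 0 lower, beside 9.21% and 10.6% of all genes tested. This filter sums fragments over both groups, so low markers could enter the test through PGRN KO. With limma on FPKM 5 of 5 were higher, beside 10.4% of all genes tested. Of these 5, however, Cd22 alone had a mean of at least 1 FPKM in WT, so that the other 4 entered that test through the PGRN KO group. No marker of the list was at 0 in all libraries. Cd79a, a signalling chain of the B cell receptor, was at 0.697, 1.35 and 0.837 FPKM in WT and at 3.25, 3.55 and 4.53 FPKM in PGRN KO, a log2 fold change of 2.01 ± 0.29 with voom (SE, limma adjusted p = 0.00248). Its partner Cd79b was at 0.633 ± 0.228 FPKM among WT libraries and 1.70 ± 0.641 FPKM among those of PGRN KO (each ± SD, n = 3, limma adjusted p = 0.0422 with voom). Ms4a1, a B cell surface protein, was at 0.0598 ± 0.0304 FPKM among WT libraries and 0.345 ± 0.0376 FPKM among those of PGRN KO. It was too low for the filter on FPKM and was higher with voom (limma adjusted p = 0.00459). It reached the filter on fragments mainly through PGRN KO, with 9, 6 and 3 fragments in WT and 41, 36 and 37 in PGRN KO. Cd22, Tnfrsf13c and Cxcr5 were also called higher by limma. The part of B cell number in the immunoglobulin levels was not tested.

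Set against Cd79a, the IgM and kappa constant genes overlapped between the genotypes, whereas Igha did not. Cd79a rested on 17, 29 and 22 fragments in WT and 82, 98 and 114 in PGRN KO. The ratios carry the counting error of Cd79a, so an overlap does not show that they are equal. The ratio of Ighm FPKM to Cd79a FPKM was 5.68, 2.66 and 3.44 in WT and 3.95, 3.44 and 3.35 in PGRN KO (exact two-sided permutation p = 0.8). The ratio of Igkc FPKM to Cd79a FPKM was 5.62 ± 1.47 in WT and 4.61 ± 0.656 in PGRN KO (each ± SD, n = 3, exact permutation p = 0.4). The ratio of Igha FPKM to Cd79a FPKM was 0.514, 0.433 and 0.546 in WT and 0.200, 0.123 and 0.216 in PGRN KO, without overlap (exact permutation p = 0.1, the smallest possible, and 0.209 adjusted over the 23 ratios).

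**Figure D4:**
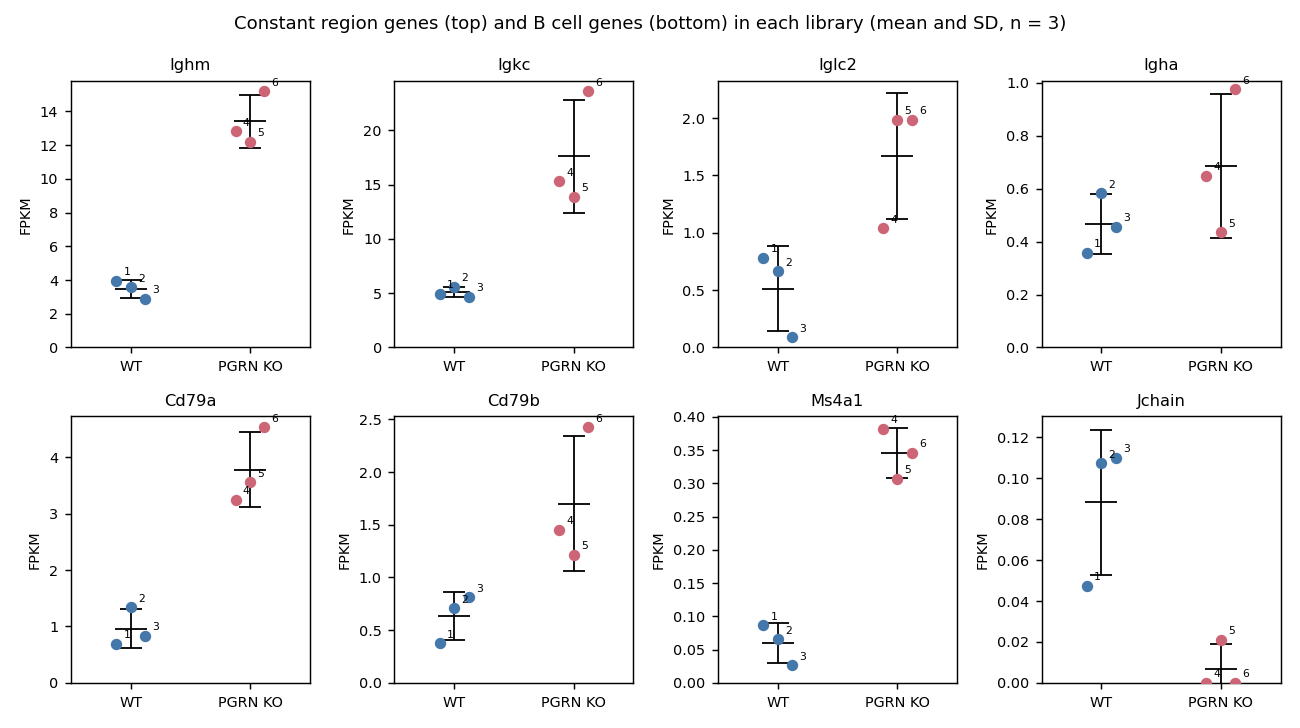
FPKM of the constant region genes Ighm, Igkc, Iglc2 and Igha and of the B cell genes Cd79a, Cd79b, Ms4a1 and Jchain, with 1 point per library (numbered by replicate) and the mean and SD of each group. The PGRN KO points lie above all WT points for Ighm, Igkc, Iglc2, Cd79a, Cd79b and Ms4a1, overlap with them for Igha, and lie under them for Jchain.

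Genes of antibody secretion were mixed in direction. Jchain, the chain that joins IgM and IgA into polymers, was at 0.0475, 0.107 and 0.110 FPKM in WT and at 0, 0.0210 and 0 FPKM in PGRN KO, which rested on 12 fragments in all and was not tested. Of 12 genes listed for plasma cells and secretion, 4 were higher and 3 lower without overlap, beside 13.3% and 14.1% of all genes above 0 FPKM. Beside 10.4% higher and 13.8% lower among all genes tested by limma, of the 6 tested here 0 were called higher and 1 lower. That gene was Sdc1, a heparan sulfate proteoglycan carried by plasma cells and other cells, at 61.7 ± 5.86 FPKM among WT libraries and 19.0 ± 2.31 FPKM in PGRN KO (each ± SD, n = 3, limma adjusted p = 0.00119). With voom 9 were tested, of which Sdc1 was lower and Pou2af1, a coactivator of transcription in B cells, was higher (log2 fold change 1.80 ± 0.31, SE, limma adjusted p = 0.00547). Mzb1, a chaperone of IgM assembly, was at 0.377 ± 0.0493 FPKM among WT libraries and 1.28 ± 0.577 FPKM among those of PGRN KO, and did not pass (limma adjusted p = 0.0609 with voom). Tnfrsf17, a receptor of plasma cells, was at 0 in all libraries. Among 4 genes of immunoglobulin transport, Fcmr, the receptor for the Fc part of IgM, rose from 0.442 ± 0.115 to 1.79 ± 0.670 FPKM (limma adjusted p = 0.0177 with voom), and it too reached the filter on FPKM only through PGRN KO.

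Genes that act around the B cell receptor were divided in direction. Of 16 listed for its signalling, 15 were tested by limma, of which 2 were higher (Btk and Ptpn6) and 7 lower (Pik3ap1, Syk, Vav1, Bcl10, Plcg2, Prkcb and Cd72). Most of these are also expressed by macrophages. Among all genes tested, 10.4% were higher and 13.8% lower by limma on FPKM, and 9.21% and 10.6% with voom. Of 6 genes listed for B-1 cells, 3 were tested by limma on FPKM, and Ahr was called lower, at 9.33 ± 0.316 FPKM among WT libraries and 4.51 ± 1.21 FPKM in PGRN KO (limma adjusted p = 0.0102). With voom all 6 were tested, and Fcrl5, a receptor of the Fc receptor-like family, was higher (log2 fold change 1.46 ± 0.39, SE, limma adjusted p = 0.0321) beside the lower Ahr. Of 9 genes for recombination and class switching, 1 was tested and 0 were called, and no surrogate light chain gene could be tested.

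Some markers of other cells also differed between the groups. The counts below stand beside 13.3% higher and 14.1% lower without overlap among all genes above 0 FPKM. Among all genes tested the shares called were 10.4% and 13.8% by limma on FPKM, and 9.21% and 10.6% with voom. The 8 mast cell markers summed to 9.24 to 12.7 FPKM in WT and 17.9 to 23.8 FPKM in PGRN KO, and 5 of them were higher without overlap, while Ms4a2 was at 0 in all libraries. Tpsb2 and Cma1, which encode mast cell proteases, were higher with voom (limma adjusted p = 0.00248 and 0.00222), and Cma1 was under 1 FPKM in WT. The 12 T cell markers summed to 4.90 to 5.05 FPKM in WT and 7.24 to 9.01 FPKM in PGRN KO, and 8 of them were higher without overlap and 0 lower. Of these markers 0 of 2 were called by limma on FPKM, whereas with voom 2 of 12 were higher and 0 lower. Of the 8 neutrophil markers, S100a8 was lower, at 49.98 ± 2.46 FPKM among WT libraries and 23.3 ± 2.20 FPKM among those of PGRN KO (SD, n = 3 each, limma adjusted p = 0.00142), and it made up nearly all of their summed level (48.8 to 53.1 and 21.5 to 26.6 FPKM). The other 7 were under 0.5 FPKM in every library with overlapping groups, and Ly6g and Elane were at 0 in all of them. Of the 6 dendritic cell markers, 4 were tested with voom, of which 0 were higher and 2 lower. Of the 7 natural killer cell markers, 3 were tested with voom, of which 0 were higher and 0 lower. The 12 macrophage markers summed to 11723 to 12655 FPKM in WT and 10507 to 14459 FPKM in PGRN KO. Of 11 tested by limma 1 was higher and 2 lower, near the shares among all genes. The part of these cells in the immunoglobulin levels was not tested.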

How the data were processed

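Polyadenylated RNA from 3 WT and 3 PGRN KO macrophage cultures was sequenced. The authors removed poor reads, aligned the rest to the mouse genome, counted fragments per gene and deposited FPKM for 54532 genes. The methods of the study name HISAT and HTSeq, whereas the submitters' processing notes name CASAVA, HISAT2 2.0.5, featureCounts 1.5.0-p3 and DESeq2 1.20.0, with the builds mm10 and GRCm38. For the annotation release and the use of strand: not given in the sources used here. Reads that match several segments may have been dropped or split by the counter, and V regions altered by joining or mutation may align poorly.

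The product of FPKM and gene length was a whole multiple of the value of 1 fragment, within 0.001, for 100% of values above 0, so fragments were recovered. FPM use the library size of the authors. Intervals are exact at 95% and floors are 3 fragments over a group. All 264 segments had the same coordinates in the GENCODE M21 annotation of GRCm38, from whose transcripts the printed sequences and the 31-base words were taken. No promoter of a V segment was analysed here.

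The comparison of genotypes used limma 3.58.1 (R 4.3.3) on log2(FPKM + 1), with a variance trend, no covariates and two-sided p-values adjusted by Benjamini-Hochberg over the 8882 genes with a mean of at least 1 FPKM, at a threshold of 0.05. The fit was tested on simulated data. Ratios of single genes were compared by exact two-sided permutation tests. Alternatives were pseudocounts of 0.1 and 0.01, no filter, a mean FPKM of at least 5, a TPM scale, counted fragments as library size, limma voom on recovered fragments, sample quality weights and leaving out each library. A minimum of 30 fragments, the V segment sums without each library, gene models of at least 200 bases and the results without PGRN KO replicate 6 in that fit were added after seeing the data.

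The segments, the gene lists and the tests were chosen with earlier results of these data known. Named were all constant genes, all segments past the threshold, the 5 V, D and J segments of each locus with the most fragments, listed genes of at least 1 FPKM past the threshold, and Cd79a, Cd79b, Ms4a1 and Jchain. Some listed genes that the rule would name are not reported here by name, although the counts include them. Ighv6-6, Ighv7-1, Igkv8-24, Gm30211, Pou2af1, Mzb1, Fcrl5, Kit, Hdc, Ighv12-3, the markers at 0 and the macrophage genes Adgre1, Cd68 and Csf1r were named after their values were seen.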

Additional observations from a re-analysis of the deposited data

How the results depend on the processing

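Ighm and Igkc stayed past the threshold in all 16 alternatives run for them (limma adjusted p 4.03e-05 to 0.014 and 3.34e-05 to 0.022). Iglc2 passed in 4 of 15 (0.0316 to 0.125) and Igkj5 in 10 of 13 (0.00114 to 0.101), and none of these segments changed direction. The number of segments called higher was 4. It was 10 without a filter, where segments with few fragments were tested, 2 with a mean of at least 5 FPKM, where fewer genes were tested, 2 with voom on recovered fragments, 2 with voom at 30 fragments, and 2 to 4 when a library was left out, with 2 without WT replicate 1 and 2 without WT replicate 2. Heavy chain constant genes called numbered 1, and 2 without a filter, the other being Ighg1. B cell markers called higher numbered 5, 11 with voom at 30 fragments, and 3 to 5 when a library was left out, with 3 without WT replicate 1 and 3 without WT replicate 2. The log2 ratio of the heavy chain locus was 1.62, 1.28 as a sum of FPKM and 0.73 without Ighm. Apart from Ighm's share of the heavy chain locus and the number of genes tested, the cause of these shifts was not tested. No paired analysis was possible because no replicate number occurs in both genotypes. With 126 of 144 segments under 10 fragments, depth limits every statement on single V, D and J segments and on IgG.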

Other observations

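Immunoglobulin pseudogenes, which were not among the 264 segments, held 0 FPM in the 3 WT libraries and 0.0577, 0.0528 and 0 FPM in PGRN KO replicates 4, 5 and 6. Ighv12-3, a heavy chain V segment known to pair with Igkv4-91 in B-1 cell receptors that bind phosphatidylcholine, had 2 fragments, both in PGRN KO replicate 5, a library in which Igkv4-91 had none. Constant genes made up 79.7% ± 2.54 of immunoglobulin fragments in WT and 83.8% ± 2.84 in PGRN KO (each ± SD, n = 3), with overlapping groups.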
